A study of Homo sapiens with 8 samples.

Results

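The change in gene expression after 5-aza-dC was followed in 2 control clones of the colorectal cancer line HCT116, which is human and established, on 4 of the 8 arrays of the series, which were taken by their titles. The untreated group held CONT1 and CONT2. The treated group held the same clones after 1 µM 5-aza-dC for 72 h, with drug and medium renewed daily, so each group had 2 arrays. The log2 response of each clone was read against its own untreated array. Standard errors and p-values come from a fit of treated against untreated arrays with no term for the clone. Both clones carried pcDNA6.2-GW/EmGFP-miR-neg, a plasmid for a negative control miRNA with a GFP marker, and had been selected with G418 and grown from a GFP-positive colony. Each is therefore 1 clone of 1 line, and no untransfected parental culture was part of the comparison. The remaining 4 arrays came from TET1-KD1 and TET1-KD2, clones made with plasmids for miRNAs against TET1, with and without the drug, and they are used here for values on a single slide. One field of the labels lists all 4 control arrays as mock treated and all 4 knockdown arrays as treated with 5-aza-dC, against the titles. The titles were followed.

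5-aza-dC (decitabine) is a deoxycytidine analog. Once phosphorylated and built into replicating DNA, it traps DNA methyltransferases, so that methylation of CpG sites is lost as cells divide, and promoters held silent by methylation can be transcribed again. Genes of the germline, the X-linked cancer-testis antigens and tumor suppressor genes with methylated CpG islands are the classes best known for this response in colorectal cancer cells, and the drug also causes DNA damage and slows the cell cycle.

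Both treated control arrays lay on a second slide, and the other 6 arrays of the series on the first, so slide and treatment cannot be told apart in the control clones. Before any scaling, synthetic spike-in RNA of medium brightness differed on the second slide by as much as -1.004 on the log2 scale, and the brightest by -0.038. Scaling by the 75th percentile, which was lower on both arrays of the second slide, shifts all these differences upward by the same amount. Treated and untreated arrays of the knockdown clones shared the first slide, and the log2 response of TET1-KD1 and TET1-KD2 is therefore given beside the control values where it bears on them. The 75th percentile of intensity was 546.3 and 585.6 on the untreated and 395.5 and 476.1 on the treated arrays, and 30974 to 31859 spots per array were well above background. Intensities below are scaled to a common 75th percentile, in the order CONT1, CONT2, and they compare a probe with itself only. Signals near 4 or 5 belong to spots not above background. On the untreated arrays 7 of 10 epithelial marker genes were well above background, among them KRT19 at 205560 and 222520, CDX2 at 1382 and 1255 and CDH1 at 1201 and 819, whereas VIL1, CDH17 and CEACAM5 were not.

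Probes were tested with limma, and a gene was counted as higher or lower when most of its tested probes passed an adjusted p of 0.05 in that direction and none in the other. Of 27286 probes, 5908 (21.7%) were higher and 6690 (24.5%) lower after 5-aza-dC. By the rule for genes, 3891 of 19687 genes (19.8%) were higher and 4078 (20.7%) lower. These shares are the background for the counts by this rule in the control clones below. With the trend on probe GC content removed, the counts were 3217 and 5136. The median log2 response over all genes was -0.07 in CONT1 and -0.07 in CONT2, and it was -0.22 after the GC correction. Within the knockdown clones, on 1 slide, 1203 genes were higher and 49 lower, and with slide as a block over all 8 arrays, which leaves the response to be read from the knockdown clones, 1772 were higher and 491 lower. A probe was tested when it was above background in any of the 4 conditions, so a gene silent in untreated cells was tested only if it had come up, and the counts of such genes are a description. In these bulk samples, a change in the share of cells that express a gene and a change in RNA per cell cannot be told apart.

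The promoters of 4 genes that rose differed widely in CpG density, and they are shown because loss of CpG methylation is the known action of the drug. Given are the 250 bases before the annotated start of each gene in RefSeq on GRCh38.p14, with every CG in capitals.
CDO1, chr5:115816660-115816909, minus strand: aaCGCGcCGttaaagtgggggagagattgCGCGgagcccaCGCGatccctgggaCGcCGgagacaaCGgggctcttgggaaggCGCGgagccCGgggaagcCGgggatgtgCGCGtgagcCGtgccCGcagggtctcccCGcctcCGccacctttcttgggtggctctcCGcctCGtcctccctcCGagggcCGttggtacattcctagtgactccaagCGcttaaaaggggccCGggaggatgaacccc
ZFP42, chr4:187995521-187995770, plus strand: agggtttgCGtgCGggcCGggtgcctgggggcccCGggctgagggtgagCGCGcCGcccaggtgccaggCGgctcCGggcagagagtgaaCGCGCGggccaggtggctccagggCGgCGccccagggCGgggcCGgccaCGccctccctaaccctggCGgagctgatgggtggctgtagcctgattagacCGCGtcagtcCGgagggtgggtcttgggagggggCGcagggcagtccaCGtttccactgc
DPPA2, chr3:109316518-109316767, minus strand: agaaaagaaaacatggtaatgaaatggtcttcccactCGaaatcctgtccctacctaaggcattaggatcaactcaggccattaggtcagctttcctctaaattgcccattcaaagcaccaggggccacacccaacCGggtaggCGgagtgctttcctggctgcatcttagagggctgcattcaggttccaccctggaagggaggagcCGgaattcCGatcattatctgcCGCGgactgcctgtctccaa
KRT20, chr17:40885243-40885492, minus strand: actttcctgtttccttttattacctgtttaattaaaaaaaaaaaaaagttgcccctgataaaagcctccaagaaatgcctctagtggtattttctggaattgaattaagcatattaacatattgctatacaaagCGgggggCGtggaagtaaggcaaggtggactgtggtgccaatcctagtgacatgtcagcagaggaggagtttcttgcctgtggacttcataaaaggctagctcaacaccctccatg
The window held 26 CG in CDO1, 23 in ZFP42, 7 in DPPA2 and 2 in KRT20. Over the 35116 RefSeq promoters listed, the median was 11. At least 1 CG was found in 93.9%, at most 2 in 22.9% and at least 23 in 25.8%. Methylation of these bases was not measured on the arrays.

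Those 4 genes serve different tissues. CDO1, cysteine dioxygenase, a frequent target of promoter methylation in colorectal cancer, read 4.95 and 4.36 untreated and 4117 and 3424 after treatment (probe at chr5:115140552-115140611, hg19), a rise of at least 189-fold (adjusted p = 0.00055). ZFP42 (REX1), a zinc finger protein of pluripotent cells, read 9.80 and 8.99 against 20332 and 14300 and rose at least 856-fold (adjusted p = 0.00055). DPPA2, another gene of early embryos and germ cells, read 9.69 and 4.30 against 1640 and 1473, at least 78.0-fold higher (adjusted p = 0.0016). KRT20, the keratin of differentiated gut epithelium, was already above background at 41.4 and 43.0, and rose to 872 and 587, a fold change of 17.0 (log2 4.08, standard error 0.23, adjusted p = 0.0017). For all 4, treated and untreated values were far apart in both clones. An "at least" fold sets the treated mean against the lowest signal well above background on each untreated array. Here and below, the adjusted p beside such a bound belongs to the measured log2 change, which includes the dim values, and not to the bound.

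**Figure D1:**
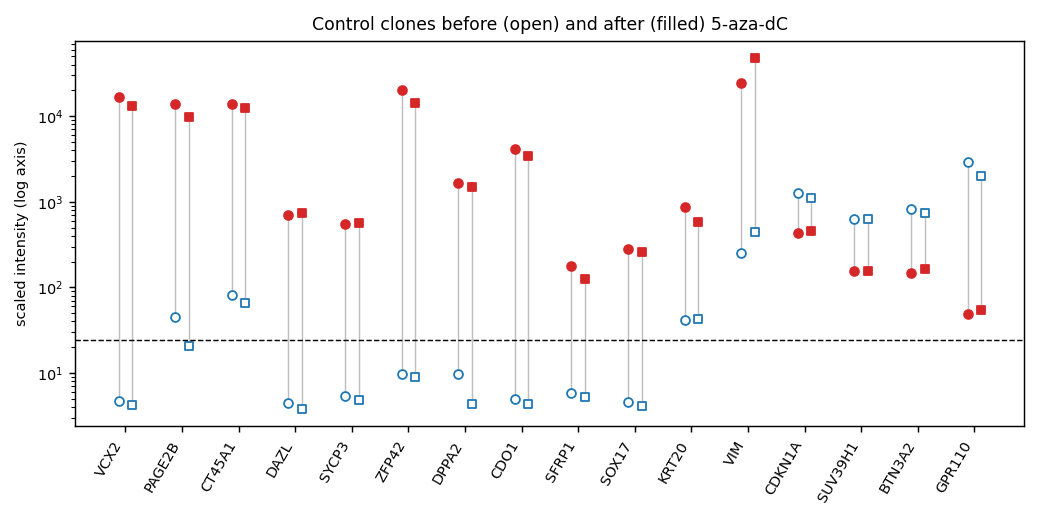
Scaled intensity (log axis) of 16 genes on the 4 arrays of the control clones, open symbols untreated and filled symbols after 5-aza-dC, circles CONT1 and squares CONT2. The dashed line is the highest of the 4 arrays' lowest signals well above background. VCX2, DAZL, SYCP3, ZFP42, DPPA2, CDO1, SFRP1 and SOX17 start below the line in both clones and end above it, while CDKN1A, SUV39H1, BTN3A2 and GPR110 fall.

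Families of cancer-testis antigens, proteins of the male germline that reappear in tumors, gave the highest list medians as measured. Of the GAGE, PAGE and XAGE antigens 8 of 11 tested genes were higher and 0 lower, of the MAGE-A, MAGE-B and MAGE-C antigens 14 of 16 were higher, and of the SSX, VCX, SPANX, CT45 and CT47 families 12 of 15. At the brightest tested probe, 6, 10 and 6 of these genes were not above background on either untreated array. The list medians of the clones' mean were 6.92, 4.86 and 4.82. Over probes above background on all 4 arrays they were 5.84, 0.58 and 3.01. Members of each family are near-identical copies on the X chromosome, and their probes can share signal. The rule for multiple probes picked out VCX2, whose brightest probe read 4.75 and 4.25 untreated and 16625 and 13044 treated, at least 739-fold higher, and whose other probe was also called. PAGE2B went from 45.3 and 20.9 to 13927 and 9824, with the untreated value of CONT2 not above background, and CT45A1 from 81.3 and 66.5 to 13798 and 12394, a 178-fold rise (adjusted p = 0.0015 and 0.00055). SSX4B was called at all 3 of its probes. MAGEA2B was bright before treatment, at 21963 and 21979, and rose only to 36747 and 36078, a fold change of 1.66 (adjusted p = 0.015, and 0.073 after the GC correction).

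Antigens encoded by single genes were divided. Of 24 tested, 11 were higher and 4 lower, with median log2 responses of 0.76 in CONT1 and 0.61 in CONT2. Over probes above background on all 4 arrays, the median of this list was 0.079. TKTL1, a transketolase-like enzyme, rose from 39.5 and 28.9 to 121234 and 97098. CTAG2, above background in 1 of the 2 untreated arrays, rose from 19.3 and 48.7 to 8450 and 7127, and CABYR, a sperm flagellar protein, rose at least 81.1-fold, to 1581 and 1652. TPTE, the only gene among them with all of 2 probes called, was 1.87-fold higher at its brighter probe, which was not called after the GC correction (adjusted p = 0.15). Further genes of the early embryo and testis appeared among the largest rises. TRIM43 went from 4.95 and 4.32 to 4138 and 1398, at least 121-fold, PRAMEF5 from 51.9 and 68.7 to 4316 and 1511, and RFPL4A from 13.1 and 11.9 to 2475 and 855. In all 3, CONT1 ended higher than CONT2. H2AFB2, a histone variant of the testis, above background in 1 of the 2 untreated arrays, rose from 16.2 and 27.3 to 745 and 677.

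Genes of the germline rose in large number. Of 30 tested genes of the piRNA pathway, which silences transposons in germ cells, and of germ cell identity, 26 were higher and 1 lower, with median log2 responses of 4.49 and 4.49. The median of the clones' mean was 2.91 with values raised to the lowest signal well above background, 1.88 under normexp correction with an offset, and 0.90 over probes above background on all 4 arrays. On the untreated control arrays 19 of the 30 were not above background. TDRD1, a Tudor protein that scaffolds PIWI proteins, rose from 38.2 and 11.4 to 585 and 381, at the brighter of 2 called probes (adjusted p = 0.012), which was above background in 1 of the 2 untreated arrays. RNF17, STK31 and BOLL, the last an RNA-binding protein of spermatogenesis, were called at every probe and rose at least 10.8-fold, 10.5-fold and 6.62-fold at the brightest. DAZL, the RNA-binding regulator that licenses germ cells for meiosis, went from 4.42 and 3.85 to 710 and 738, and DDX4 (VASA), the helicase that marks germ cells, from 4.48 and 4.01 to 182 and 153. MAEL and SOHLH1, singled out after their values were seen, also passed, from untreated values below background. The gene that fell was NOBOX, an oocyte homeobox gene, at -2.46 on the log2 scale, with knockdown responses of -0.07 and -0.20.

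Meiosis genes followed, with 13 of 19 tested higher and 2 lower and median log2 responses of 3.54 and 3.11. In the same order of settings, the median was 2.09, 1.27 and 0.33. SYCP3, a component of the synaptonemal complex, went from 5.45 and 4.86 to 550 and 562, at least 27.9-fold (adjusted p = 0.00055). HORMAD1, which monitors chromosome synapsis, and SPATA22 were called at both probes and rose at least 4.68-fold and 3.01-fold at the brighter. STAG3, the meiotic cohesin subunit, was called at 2 of 3 probes, and the brightest, at 0.38 on the log2 scale, did not pass. The 2 that fell, MSH5 and MLH3, belong to the mismatch repair family. MSH5 read 1135 and 1011 against 620 and 717, 1.61-fold lower (adjusted p = 0.029), with log2 responses in the knockdown clones near 0 in TET1-KD1 and of -0.63 in TET1-KD2.

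Pluripotency genes split by gene. Of 21 on the array 13 were tested, and 8 of those were higher and 0 lower. At the brightest tested probe, 6 of the 13 were not above background on either untreated array, and 3 were above it on all 4 control arrays. LIN28B, which blocks maturation of let-7 miRNAs, rose from 20.8 and 11.7 to 5487 and 5827, at least 284-fold (adjusted p = 0.00089). POU5F1 (OCT4), the core factor of the network, was above background before and rose at both probes, from 126 and 110 to 278 and 256 at the brighter one, 2.26-fold, and its copies elsewhere in the genome may add to that signal. LIN28A, ESRRB, UTF1 and LEFTY1 did not pass, with log2 fold changes between -0.18 and 0.40. KLF4 did not pass either, because its clones differed, with responses of 6.19 in CONT1 and 0.83 in CONT2. L1TD1, an embryonic RNA-binding protein derived from a LINE-1 retrotransposon, went from 5.16 and 4.55 to 1224 and 1211, at least 61.1-fold.

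**Figure D2:**
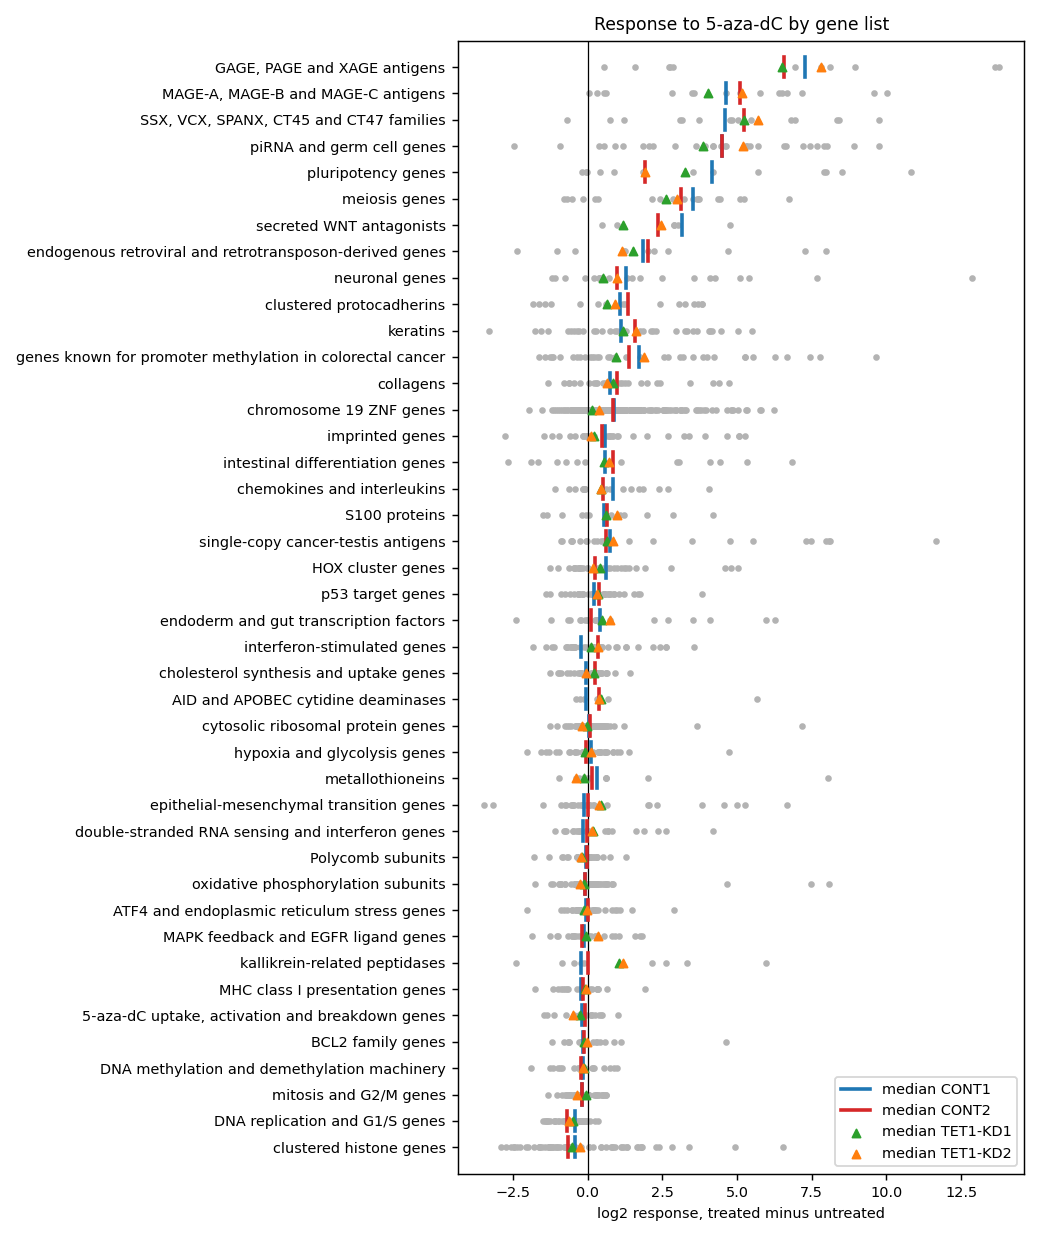
Log2 response to 5-aza-dC by gene list. Each grey point is the median over the tested probes of 1 gene, averaged over CONT1 and CONT2, the lines are the list medians in CONT1 and CONT2, and the triangles those in TET1-KD1 and TET1-KD2, whose arrays shared 1 slide. Responses from untreated values below background are plotted as measured and depend on the background. The piRNA, meiosis and multi-gene antigen lists lie far to the right of 0, and that of antigens encoded by single genes lies nearer to 0. The DNA replication list lies to the left in all 4 clones, and ribosomal proteins center on 0.

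Among 36 tested genes known for promoter methylation in colorectal cancer, 16 were higher and 4 lower, with median log2 responses of 1.71 and 1.39, and for the clones' mean of 0.92 with values raised to the lowest signal well above background, 0.60 under normexp and 0.23 over probes above background on all 4 arrays. Beside CDO1, the integrin ITGA4 was called at both probes and rose at least 3.46-fold at the brighter. Well-known members did not behave alike. CDKN2A, one of whose alleles is known to carry a frameshift in HCT116, read 12340 and 12061 against 13740 and 14120, and its other probe was called lower, at -0.70 on the log2 scale. MGMT, a DNA repair enzyme, fell from 1924 and 1683 to 772 and 735, 2.39-fold (adjusted p = 0.0067), and RASSF2 was 1.49-fold lower at the brighter of 2 called probes. In the knockdown clones the log2 responses of MGMT were -0.26 and -0.54, and those of RASSF2 0.05 and -0.41.

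The secreted WNT antagonists, which hold WNT ligands or receptors back and are classical methylated genes of this tumor, were low throughout. Of 10 on the array 6 were tested and 5 of those were higher. SFRP1 read 5.81 and 5.25 untreated and 177 and 127 treated, at least 7.52-fold higher (adjusted p = 0.0011). DKK3 reached 52.4 and 44.1, WIF1 45.5 and 35.7 and DKK4 68.0 and 27.6, each at least 2.02-fold higher, so these genes ended close to the detection limit of 18.9 to 24.2. FRZB also rose, by 0.97 on the log2 scale, DKK1 did not pass at 0.46, and SFRP2 was on the array but not tested, since it was not above background in both arrays of any condition. SOX17, an endodermal factor that dampens β-catenin signaling, rose from 4.60 and 4.12 to 285 and 257, at least 13.6-fold (adjusted p = 0.00056). TET1 itself, the dioxygenase that oxidizes 5-methylcytosine, read 833 and 859 against 795 and 800 and was not called at any of its 3 probes.

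Over the endoderm and gut transcription factors, SOX17 among them, 4 of 20 tested were higher (20%) and 2 lower (10%). The shares of all genes were 19.8% and 20.7%. GATA5 rose at least 18.0-fold, from 4.92 and 4.29 to 379 and 338. FOXA2, above background in 1 of the 2 untreated arrays, went from 4.94 and 32.5 to 151 and 307. CDX2, the intestinal master regulator, did not pass, at 1382 and 1255 against 1760 and 1371. ELF3, an epithelial ETS factor, fell from 3093 and 2158 to 427 and 551, 5.33-fold (adjusted p = 0.0061). On the single slide of the knockdown clones ELF3 responded by -0.30 and -1.39.

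Genes of gut differentiation moved in both directions. Of 15 tested, 8 were higher and 4 lower. The trefoil peptides of mucus rose, TFF3 at all 3 probes from 14.3 and 20.7 to 735 and 637 at the brightest, which was above background in 1 of the 2 untreated arrays (adjusted p = 0.0011), and TFF2 at least 30.0-fold. ASCL2, the WNT-driven factor of intestinal stem cells, rose from 4.39 and 3.86 to 580 and 391, at least 23.9-fold. MUC2, the goblet cell mucin, fell at both probes, from 120 and 140 to 21.1 and 14.3, at least 5.37-fold (adjusted p = 0.0039).

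The mesenchymal intermediate filament VIM rose from 255 and 447 to 24720 and 47503, a fold change of 101 (log2 6.66, standard error 0.46, adjusted p = 0.0025), and the log2 responses of the knockdown clones were 4.87 and 6.14. N-cadherin (CDH2) rose at both probes, from 15.7 and 8.12 to 324 and 177 at the brighter, the matrix protein SPARC, above background in 1 of the 2 untreated arrays, from 23.4 and 7.10 to 355 and 680, and the repressor ZEB1 at both probes from 153 and 144 to 944 and 880. E-cadherin (CDH1) did not pass, at 1201 and 819 against 818 and 896, while EPCAM fell from 19909 and 23245 to 9528 and 14160 (adjusted p = 0.04996). GRHL2, a factor that maintains epithelial cells, fell from 139 and 119 to 15.6 and 12.9, at least 5.34-fold. Over the whole list 7 of 29 genes were higher (24.1%) and 4 lower (13.8%), against 19.8% and 20.7% of all genes. The median log2 responses were -0.11 and 0.01.

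Structural genes of other epithelia and of the matrix also came up. Of 35 keratins tested 15 were higher and 4 lower. KRT6A, a keratin of activated epidermis, rose at least 23.9-fold to 466 and 488, and KRT14, of the basal layer, was called at all 3 probes and rose at least 4.02-fold at the brightest. The simple-epithelium keratins of this cell line did not pass at any probe: KRT8 read 32807 and 23542 against 18952 and 14425 at its brightest probe, KRT18 85827 and 69056 against 128335 and 106850, and KRT19 205560 and 222520 against 168169 and 220316. Of 29 collagens 14 were higher and 0 lower, among them COL23A1, a transmembrane collagen, from 2009 and 1738 to 33581 and 34901, 18.3-fold (adjusted p = 0.00074), and COL8A2, called at both probes, at least 9.26-fold at the brighter. Kallikrein peptidases KLK12, KLK11, KLK5 and KLK15 rose, KLK2 fell, with knockdown responses of 0.19 and 1.18, and of 13 S100 calcium-binding proteins 5 were higher, S100P 7.22-fold and S100A3 3.98-fold. MT1G, 1 of 3 metallothioneins of 11 that were higher, went from 4.52 and 4.05 to 1139 and 1122, at least 56.8-fold, beside changes of 1.53-fold in MT1F and 1.52-fold in MT2A, the latter with knockdown responses of -0.06 and -0.38, and neither called after the GC correction (adjusted p = 0.12 and 0.49).

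Neuronal genes gave some of the steepest single rises. NEFH, the heavy neurofilament, went from 4.53 and 4.05 to 5207 and 4058, at least 231-fold at the brighter of 2 called probes (adjusted p = 0.00055), and MAP1B, a microtubule protein of axons, was called at both probes and rose 3.17-fold at the brighter. The ubiquitin hydrolase UCHL1 rose from 4.18 and 3.75 to 31653 and 27922. In the same list MAPT (tau) fell 1.53-fold at its brighter probe, with knockdown responses of 0.19 and 0.14. In total, 9 of 21 tested genes were higher and 3 lower. KRTAP3-1, a hair keratin-associated protein, was also among the largest multi-probe rises, from 129 and 108 to 2124 and 1323.

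Imprinted genes, which are normally read from 1 parental allele under control of methylated regions, included 15 of 33 that were higher and 2 lower. At the DLK1-MEG3 domain of chromosome 14, which expresses DLK1 from the paternal and noncoding RNAs from the maternal copy, several transcripts rose in both clones. DLK1 rose at both probes, from 12.5 and 22.7 to 1907 and 936 at the brighter, which was above background in 1 of the 2 untreated arrays (adjusted p = 0.0033). The small nucleolar RNA SNORD114-28 of the same domain was called at both probes and rose at least 41.8-fold at the brighter. MEG8 and MEG3, singled out after their values were seen, read 6.43 and 4.66 against 186 and 182, and 760 and 731 against 1964 and 2191, although 1 of the 4 MEG3 probes fell. FAM50B, INPP5F and GRB10, imprinted genes of other chromosomes, rose 33.5-fold, 2.29-fold and 1.58-fold, the last not called after the GC correction (adjusted p = 0.30).

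The zinc finger genes of chromosome 19, many of which encode KRAB repressors of retrotransposons, formed the longest list. Of 208 tested, 105 were higher (50.5%) and 13 lower, with median log2 responses of 0.89 and 0.85 and of 0.53 after the GC correction. In 31 of the 68 genes with several probes every probe was higher, against 402 of 4960 over all genes. ZNF260 went from 4.61 and 3.94 to 491 and 287, ZNF542 from 4.47 and 3.91 to 446 and 257, and ZNF671 from 4.50 and 4.03 to 380 and 290, each at least 16.7-fold. ZNF880 was called at all 3 probes, at 47.4 and 24.0 against 390 and 282 in the brightest, but responded by only 0.35 and 0.42 in the knockdown clones. The list medians there were 0.14 and 0.37. Of 11 tested genes derived from retroviruses or retrotransposons, 8 were higher, such as PNMA5 from 75.3 and 75.3 to 13028 and 10491, and PNMA1 at both probes, 2.51-fold.

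Other clustered families changed in part. Of 32 HOX genes tested 11 were higher and 2 lower, with HOXD13, HOXD1 and HOXC12 at the top, at least 7.38-fold, 5.96-fold and 4.78-fold higher. Of 50 clustered protocadherins on the array 16 were tested, 6 of them not above background in either untreated array, and 10 of the 16 were higher and 2 lower. PCDHB2 was called at both probes, at least 4.02-fold higher at the brighter, while PCDHGA7 fell at both probes, 2.88-fold at the brighter, with knockdown responses of 0.26 and 0.01.

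Interferon-stimulated genes moved in both directions. Demethylating drugs are known to raise double-stranded RNA from endogenous retroviruses and so to induce these genes. Of 40 tested interferon-stimulated genes 8 were higher and 7 lower, against 19.8% and 20.7% of all genes, and the median log2 response was -0.23 in CONT1 and 0.33 in CONT2. BST2 (tetherin), IFITM1 and IFI27 rose, IFITM1 with an adjusted p of 0.073 after the GC correction, BST2 at both probes from 108 and 129 to 781 and 1550, 9.32-fold (adjusted p = 0.0077), and IFI27 from 418 and 313 to 2746 and 6630. MX1, an antiviral GTPase, rose from 60.6 and 31.3 to 170 and 231, 4.54-fold (adjusted p = 0.018). ISG15 read 16690 and 18146 against 19232 and 30938 and did not pass, and IFIT1 read 1049 and 477 against 848 and 1152, lower in CONT1 and higher in CONT2. EIF2AK2 (PKR), the kinase activated by double-stranded RNA, fell at both probes, from 3173 and 3001 to 1176 and 1507 at the brighter, 2.32-fold (adjusted p = 0.011).

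Sensors and regulators upstream also split, with 7 of 22 tested genes higher and 4 lower. MB21D1 (cGAS), the cytosolic DNA sensor, rose from 12.8 and 19.5 to 259 and 323, at least 14.3-fold (adjusted p = 0.0022), and the regulator IRF7 from 1932 and 1771 to 9693 and 13094, 6.09-fold (adjusted p = 0.0032). In the knockdown clones these responded by 3.82 and 3.76 and by 2.15 and 3.22. IFNE, an interferon of epithelia, rose at least 3.50-fold but only to 68.6 and 70.6. The adaptor TICAM1 fell from 8979 and 9035 to 5632 and 6395 at the brighter probe, with knockdown responses of 0.43 and 0.19. In antigen presentation 2 of 23 genes were higher and 4 lower: the chaperone TAPBP fell at all 3 probes, 1.73-fold at the brightest, and the immunoproteasome subunit PSMB9 fell 3.40-fold, with knockdown responses of -0.31 and -0.06, while its partner PSMB8 rose at least 2.66-fold. APOBEC3G, a cytidine deaminase that restricts retroviruses, rose at least 10.0-fold, from 4.19 and 3.75 to 127 and 314. Of 16 chemokines and interleukins 6 were higher and 2 lower, CXCL1 and IL32 at both probes.

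Many DNA replication genes fell. Of 49 tested, all above background on the 4 arrays, 24 (49.0%) were lower and 0 higher, with median log2 responses of -0.44 in CONT1, -0.69 in CONT2, and -0.51 and -0.63 in the knockdown clones on 1 slide. MCM7, a subunit of the replicative helicase, fell at both probes, from 65402 and 72977 to 35552 and 36512 at the brighter, 1.92-fold (adjusted p = 0.011). CHAF1A, which loads histones behind the fork, fell at both probes, 1.65-fold at the brighter, and FEN1, the flap endonuclease, from 2752 and 3132 to 1109 and 980, 2.82-fold. PCNA, the sliding clamp, read 16642 and 20578 against 14603 and 16069 and did not pass. Mitotic genes moved less, with 10 of 47 lower (21.28%) and 0 higher and medians of -0.19 and -0.18. Their share of lower genes was near the 20.7% of all genes. PLK1, the mitotic kinase, fell 1.95-fold at the brighter of 2 called probes, and CDC25C fell 2.02-fold, with knockdown responses of 0.75 and -0.32.

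Clustered histone genes moved in opposite directions by type. Of 64 tested, 30 were lower and 19 higher. Among genes for H4, 11 of 13 were lower and 0 higher, with median log2 responses of -1.17 and -1.26, and among those for H3, 7 of 13 were lower and 1 higher. For H2A 9 of 16 were lower and 5 higher. For H2B, in contrast, 10 of 17 were higher and 2 lower, with medians of 0.83 and 1.01, and for the linker histone H1, 3 of 5 were higher and 1 lower. HIST1H4D fell at both probes, from 5415 and 5535 to 925 and 655 at the brighter, 7.03-fold (adjusted p = 0.0031), and HIST1H4L fell from 40136 and 42199 to 11814 and 7582, 4.35-fold. HIST1H2BK rose at both probes, from 2753 and 2433 to 27413 and 34895 at the brighter (adjusted p = 0.0014), and HIST1H1C, singled out after its values were seen, from 9944 and 10013 to 43802 and 53336. The split was also present on the single slide of the knockdown clones, with medians of -1.15 and -1.26 for H4 and of 0.50 and 1.18 for H2B, and 14 histone genes were among the 49 called lower there. Copies within a type are nearly identical, so probes can share signal.

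**Figure D3:**
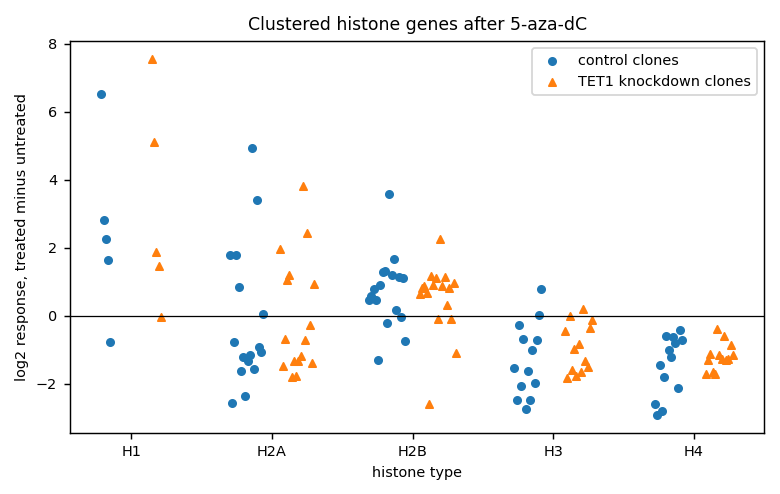
Log2 response of the tested clustered histone genes by type, at the brightest tested probe of each gene, circles for the control clones (mean of CONT1 and CONT2) and triangles for the knockdown clones (mean of TET1-KD1 and TET1-KD2). All 13 H4 genes lie below 0 in the control clones, and most H2B genes lie above 0.

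Targets of p53, which is wild type in HCT116, were divided. Of 39 tested 11 were higher and 5 lower. TP53I3 rose at both probes, from 3329 and 3628 to 7898 and 8663 at the brighter, 2.38-fold (adjusted p = 0.0063), and MDM2, the ubiquitin ligase of p53, was called at 3 of 4 probes and rose 1.63-fold at the brightest (adjusted p = 0.019, and 0.18 after the GC correction), with knockdown responses of 0.07 and -0.27. The cell cycle inhibitor CDKN1A (p21) went the other way, from 1267 and 1104 to 435 and 458, 2.65-fold lower (adjusted p = 0.0054), whereas in the knockdown clones its log2 responses were 0.78 and 0.24. CCNG1 fell 1.44-fold, with knockdown responses of 0.40 and -0.25. Of the BCL2 family, BID fell at both probes, from 9680 and 9679 to 3842 and 3953 at the brighter, 2.48-fold (adjusted p = 0.0045), BCL2L2 fell 1.72-fold, and BCL2A1 and BCL2L10, the latter a germ cell member, rose 2.17-fold and at least 5.74-fold.

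The enzymes the drug acts on responded modestly at their brightest probes. DNMT1, the maintenance methyltransferase that 5-aza-dC depletes as protein, rose in RNA from 4916 and 5631 to 8700 and 8815, 1.66-fold (adjusted p = 0.020), with knockdown responses of -0.57 and -0.50. After the GC correction the log2 response of DNMT1 was 0.13 and was not called (adjusted p = 0.47). DNMT3A was called at all 3 probes, with log2 responses from 0.52 to 3.68. At the brightest it rose 1.85-fold, with knockdown responses of 0.19 and 0.03. DNMT3B and UHRF1, the partner that brings DNMT1 to replicating DNA, did not pass, at 2271 and 2075 against 2577 and 2493 and at 4227 and 5626 against 3615 and 3370. HELLS, a chromatin remodeler needed for methylation, fell 2.34-fold at the brighter of 2 called probes, and MBD3 and the deubiquitinase USP7 fell 2.43-fold and 3.75-fold. SUV39H1, the H3K9 methyltransferase of silent chromatin, fell at both probes, from 625 and 628 to 155 and 156 at the brighter, 4.02-fold (adjusted p = 0.0018), with knockdown responses of -1.24 and -1.45. Of 31 Polycomb subunits 2 were higher and 4 lower, PHF19 3.72-fold lower and JARID2 2.46-fold higher. Of 21 tested genes for uptake, activation and breakdown of the drug 4 were lower (19.05%) and 1 higher, against 20.7% and 19.8% of all genes. The 4 were DCTD, the dCMP deaminase, 2.75-fold lower, RRM1, 2.54-fold, the transporter SLC29A2, 2.19-fold, and DCK. The last, the kinase that activates the drug, fell from 350 and 423 to 216 and 247, 1.66-fold (adjusted p = 0.031).

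Housekeeping lists stayed near 0. The median log2 response was 0.03 and 0.09 over 84 cytosolic ribosomal protein genes, with 9 higher and 5 lower, and -0.08 and -0.09 over 81 subunits of oxidative phosphorylation, with 11 higher and 11 lower. The largest responses within them belonged to tissue-restricted isoforms: COX8C, the testis form of a cytochrome oxidase subunit, rose from 47.5 and 49.5 to 9146 and 8235, 179-fold, and COX7A1, the muscle and heart form, at least 67.2-fold (adjusted p = 0.00055 and 0.00058). Of 33 hypoxia and glycolysis genes 7 were higher (21.2%) and 8 lower (24.2%), near the 19.8% and 20.7% of all genes. Among glycolytic enzymes PFKL fell from 8340 and 8312 to 2305 and 1810, 4.08-fold (adjusted p = 0.0039), and PGAM1 fell at both probes, 1.79-fold at the brighter, with knockdown responses of 0.32 and 0.07 and of -0.34 and -0.44. The glucose transporter SLC2A3 was called at both probes and rose at least 14.3-fold at the brighter. Of 28 ATF4 and stress genes 5 were higher and 5 lower (17.9% each). Of 29 cholesterol genes 3 were higher (10.3%) and 6 lower (20.7%). PHGDH, the first enzyme of serine synthesis, fell 4.08-fold, CTH and the stress protein NUPR1 rose 2.82-fold and 7.34-fold, and in cholesterol synthesis DHCR7 and INSIG1 fell 2.41-fold and 1.99-fold while STARD4 rose 2.70-fold, and INSIG1 responded by 1.05 and 0.93 in the knockdown clones. Among MAPK genes the EGFR ligands TGFA and EREG and the receptor ERBB3 fell 2.66-fold, 3.61-fold and 2.26-fold, and EGFR was higher at 2 of 3 probes, its brightest not called after the GC correction (adjusted p = 0.15). Of 26 genes in that list 5 were higher and 5 lower (19.2% each).

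The largest falls called at every probe of a gene were smaller than the largest rises. GPR110, an adhesion receptor, fell most, from 2898 and 1995 to 49.0 and 54.6 at the brighter probe (chr6:46967845-46967904, hg19), 46.5-fold (log2 -5.54, standard error 0.23, adjusted p = 0.0010), with knockdown responses of -2.54 and -5.14. BTN3A2, a butyrophilin recognized by γδ T cells, fell at both probes, from 834 and 743 to 148 and 165, 5.02-fold (adjusted p = 0.0020), with knockdown responses of -1.21 and -1.92. PLAU (urokinase) read 7722 and 8228 against 1940 and 3181, RAMP1 11353 and 14750 against 5295 and 7535 (adjusted p = 0.075 after the GC correction), and TLE6 246 and 196 against 52.3 and 54.3. The aldehyde dehydrogenases ALDH3B1 and ALDH7A1 were called at all 3 probes each and fell 4.26-fold and 2.45-fold, with knockdown responses of -0.51 and -0.89 and of 0.09 and -0.58. RTDR1 fell 3.90-fold and IER5L 3.24-fold, with knockdown responses of 0.17 and -0.22 and of 1.11 and -1.42. The falls of GPR110, BTN3A2 and SUV39H1 were thus present in both knockdown clones on 1 slide, while those of RTDR1, IER5L and ALDH7A1 were not in both.

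**Figure D4:**
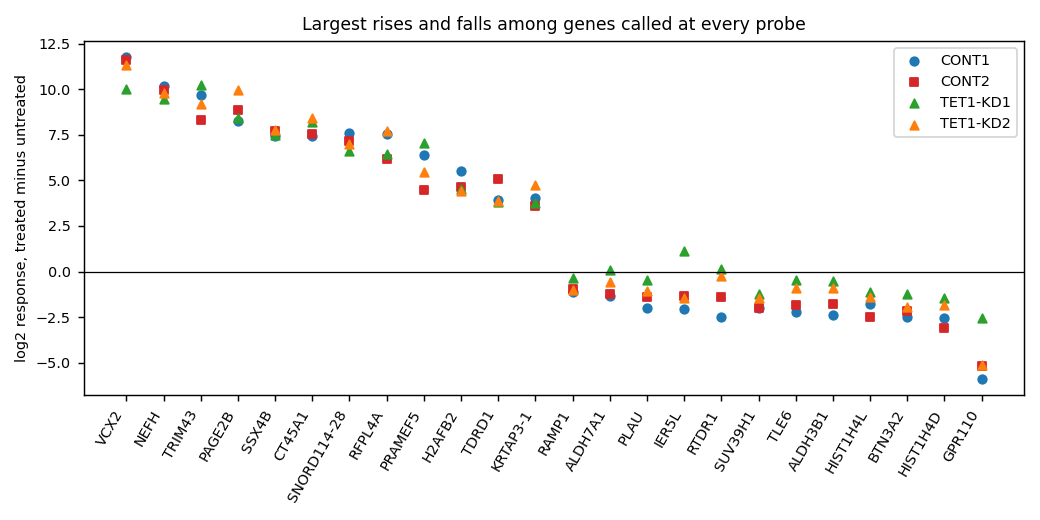
Log2 response at the displayed probe of the genes with the largest rises and falls among those with every probe called, circles and squares for CONT1 and CONT2, triangles for TET1-KD1 and TET1-KD2. The 12 rises are at 3.62 or more in all 4 clones, as measured from untreated values that were in part below background, whereas RTDR1 and ALDH7A1, which fall in the control clones, lie near 0 in TET1-KD1.

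Markers of other cell types were checked in the same arrays. The fibroblast marker THY1 rose from 5.20 and 5.68 to 872 and 885 and PDGFRB to 29.8 and 53.1, while COL3A1 and LUM were at background on all 4 arrays. Among leukocyte genes CD14 rose from 44.8 and 48.3 to 304 and 324, while probes of PTPRC disagreed and CD3E was not tested. Summed over a list, the fibroblast markers went from 376 and 346 to 1475 and 1753, the endothelial markers from 119 and 120 to 269 and 243, and the epithelial markers from 347126 and 340878 to 327836 and 358219. Their part in the results above was not tested.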

How the data were processed

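RNA of each of the 8 samples was hybridised to 1 one-colour Agilent human expression array with probes of 60 bases, whose positions the file headers give on hg19. The authors deposited the scanner output of Feature Extraction 10.7.3.1, and the processed intensity in it, already background-subtracted by that software, was used. Spots that were controls or flagged were left out, repeated probes were averaged, each array was scaled by its 75th percentile to a common 544.4, and values were raised to 1 before the log2. Probes well above background on both arrays of any of the 4 conditions were tested, which left 27286 probes of 19687 gene names. The 4 control arrays were fitted with limma 3.58.1 in R 4.3.3, treated against untreated with no term for the clone, with Benjamini-Hochberg adjustment over all tested probes. Where a gene had several probes, the brightest tested one is given. A probe not well above background in a group has only a bound there, as said where it is used. The arrays carry no read depth, and their number, 2 a group, limits the precision. Nothing says that treated and untreated cultures were repeated within a clone, so p-values measure the spread between clones and arrays only.

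On simulated arrays of 27286 probes with 400 changed by 2 on the log2 scale, 87.75% of the changed probes were recovered and 6.15% of the calls were false. The simulated noise was independent, without a shift between slides, and far fewer probes were changed than were called in the data. The share of false calls in the simulation therefore does not carry over to these arrays. The untreated and treated array of a clone come from the same cells, so the clones pair the samples, and their deviations from the group means correlated at 0.198 over probes.

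The gene lists and the rule for named genes were chosen with earlier results of these data known. Named are the study's own genes, the 12 largest rises and falls among genes called at every one of 2 or more probes (at most 3 of a family), in each list up to 4 called members with the largest response and its defining members, and the cell type markers. MAEL, SOHLH1, NOBOX, MLH3, LIN28A, ESRRB, UTF1, LEFTY1, KLF4, GRHL2, KLK2, MEG3, MEG8 and HIST1H1C were added after their values were seen. XIST and a few other genes are not reported here. Promoters came from the RefSeq table for GRCh38.p14. Alternatives covered the scaling, background, filters, GC content of probes, clone and slide blocks, the fold, the methods' t-test, the authors' own value table (their processed intensities of the same arrays) and each array or clone left out. A GC correction together with the clone as a block was added after seeing the data.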

Additional observations from a re-analysis of the deposited data

Results flagged for a closer look

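Control and knockdown clones differed in their response to the drug, by the interaction term of a limma fit over all 8 arrays, for 9 of the genes named above and for 1522 of 27286 probes. The treated control arrays were the only ones on the second slide, so clone type and slide cannot be told apart in this term. Given as the response of the knockdown clones minus that of the control clones on the log2 scale, the difference was -1.271 for DNMT1 (adjusted p = 0.026), 1.916 for CDKN1A (adjusted p = 0.0185) and 2.224 for PFKL (adjusted p = 0.0175). DNMT1 and CDKN1A moved in opposite directions in the control and the knockdown clones. It was -2.907 for CDO1 (adjusted p = 0.0413), which rose in all 4 clones, and -2.204 for ZEB1 (adjusted p = 0.0316). It was 2.193 for MUC2 (adjusted p = 0.04), 1.246 for TGFA (adjusted p = 0.0316), 1.1 for MBD3 (adjusted p = 0.0364) and 1.571 for PHGDH (adjusted p = 0.0499), all of which fell less in the knockdown clones.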

How the results depend on the processing

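The clones pair the samples, and with the clone as a replicate block 5904 probes were higher and 6525 lower, and 3912 genes were higher and 3970 lower. Under this block 4 of the 150 called genes named above lost their call and none turned. With the GC correction added to the block, 4873 probes were higher and 8241 lower, and 3269 genes were higher and 5173 lower. With slide as a block over all 8 arrays, 2429 probes were higher and 789 lower, and 1772 genes were higher and 491 lower, which held 40.2% of the genes called higher and 8.75% of those called lower. Under it 57 of the 150 called genes lost their call and 11 turned, and under the methods' t-test 69 lost theirs. The methods' t-test, after the same adjustment, gave 2151 and 2011 probes and 1397 and 1171 genes, and a minimum of 2-fold left 3897 and 3668 probes, and 2186 genes lower. Without the filter on dim probes 2571 genes were lower. Leaving out an array or a clone gave 1773 to 4761 probes higher and 1398 to 5654 lower, and 1267 to 3221 genes higher and 818 to 3455 lower, the fewest without the CONT2 clone, where 81 of the 150 called genes lost their call.

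Under the slide block, the log2 response turned to -0.54 for DNMT1, 0.51 for CDKN1A, -0.41 for CDKN2A, 0.44 for CDH1, 0.20 for TET1, 0.13 for PCDHGA7, 0.16 for MAPT, 0.31 for TICAM1, -0.099 for MDM2, 0.079 for CCNG1, 0.22 for CDC25C, -0.22 for MT2A, 0.99 for INSIG1 and 0.20 for PFKL. That block reads the response from the knockdown clones, as the only arrays with both treatments on 1 slide. With the GC correction, with or without the replicate block, it turned to -0.18 for DNMT3B and -0.18 for CDKN2A, neither called. It ended the call of 10 of the 150, DNMT1, RAMP1, MAGEA2B, TPTE, GRB10, IFITM1, MDM2, MT1F, MT2A and EGFR. It moved called responses by over 1.5 times to 0.59 for DNMT3A, -0.95 for RASSF2, 0.74 for INPP5F, -0.99 for MAPT, -0.82 for CCNG1, -0.56 for MCM7, -1.16 for CHAF1A, -0.64 for MBD3, -1.32 for DCK and -1.30 for PGAM1. Without an array or a clone, IFIT1 ranged from -0.31 to 1.27 and CDH1 from -0.55 to 0.13. Among the 42 list medians, 7 changed sign under the slide block, 5 under the GC correction and 5 under quantile normalization, and the cause was not tested. The GC correction shifts the median of all genes to -0.22 and leaving out the filter to 0.27. Quantile normalization moved the median of the ribosomal protein genes to -0.23. Dim probes limit the size of many rises to bounds.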
